A study of Mus musculus with 9 samples.

Results

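Collagen genes were followed across 9 RNA-seq libraries of Dmdmdx mouse embryonic fibroblasts (MEFs) that were left untreated or driven toward muscle with the transcription factor MyoD. The 44 protein-coding genes whose symbol joins Col, a type number, the letter a and a chain number were taken from 35675 genes, by symbol alone. They were sorted by the assemblies their proteins form into 11 fibrillar collagens, 8 basement membrane collagens and 25 other collagens. The first group of 3 libraries came from MEFs with ectopic MyoD and the small molecules F/R/C, which the labels give by these letters alone, and is called F/R/C here. A further 3 libraries came from MEFs with MyoD alone, and 3 came from MEFs with no treatment, the baseline. All 9 share the Dmdmdx genotype, in which a premature stop in Dmd leaves muscle without the membrane-linking protein dystrophin, so the untreated MEFs are not wild type. The labels give neither the way MyoD was delivered nor the days of treatment, nor whether replicates were separate cultures or embryos. The p-values therefore speak of the spread among these 9 libraries, which may be technical.

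Collagens are secreted or membrane-bound proteins built from 3 chains wound into a helix. Fibrillar chains such as those of types I, III and V pack into the fibrils of connective tissue and are the main product of fibroblasts. Type IV chains form the sheet-like network of basement membranes, and types XV and XVIII bridge basement membranes to the matrix around them. In skeletal muscle each fibre lies in a basement membrane held between fibrillar layers, and some minor collagens sit at the neuromuscular or the muscle-tendon junction.

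The libraries held 21112071 to 24291056 estimated counts. CPM denotes counts per effective library size, and a count of 0 allows up to 3 counts, or 0.113 to 0.144 CPM, for counting error only. All 16 fibroblast markers examined were above 0 in every library. The summed level of 18 skeletal muscle markers was 44674, 48104 and 64252 CPM in F/R/C replicates 1, 2 and 3, 1388, 1641 and 4099 CPM in MyoD libraries and 8.93, 6.72 and 729 CPM in MEF libraries. MEF replicate 3 thus stood apart from the other MEF libraries in muscle transcripts, while MEF replicate 1 stood apart in collagen transcripts, as given next. Where leaving out 1 of these libraries ended the call of a collagen, this is stated beside the call. No such values are given for genes of the other lists.

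Collagens took a smaller part of the RNA with F/R/C. They made up 1.68, 1.29 and 1.03% of all counts in F/R/C replicates 1, 2 and 3, 4.94, 1.802 and 1.43% in MyoD libraries and 9.43, 3.49 and 2.92% in MEF libraries. Replicate 1 was the highest library in each group, and F/R/C replicate 1 alone overlapped the MyoD range. Fewer cells of a collagen-making type and less collagen RNA in each cell cannot be told apart in such bulk samples.

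The classes did not move alike. The summed level of the fibrillar collagens was 8732, 6225 and 5609.7 CPM in F/R/C, 36979.8, 10649 and 8431 CPM in MyoD and 85446, 25410.2 and 19595 CPM in MEF libraries. Every F/R/C library lay below every MEF library, and only F/R/C replicate 1 reached above the lowest MyoD library. The log2 ratio of mean sums was -2.67 for F/R/C against MEF, and -1.77 without MEF replicate 1. The basement membrane collagens summed to 3364, 2497 and 3287 CPM in F/R/C, 2395, 1521 and 2187 CPM in MyoD and 2429, 1984 and 4143 CPM in MEF libraries. Here F/R/C lay within the MEF range and above the MyoD range, with a log2 ratio of 0.10 against MEF. The other collagens summed to 4989, 4789 and 2830.5 CPM in F/R/C, 7444, 3317 and 3915 CPM in MyoD and 10089.5, 5551 and 6278 CPM in MEF libraries, and every F/R/C library lay below every MEF library. These sums carry no test.

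**Figure D1:**
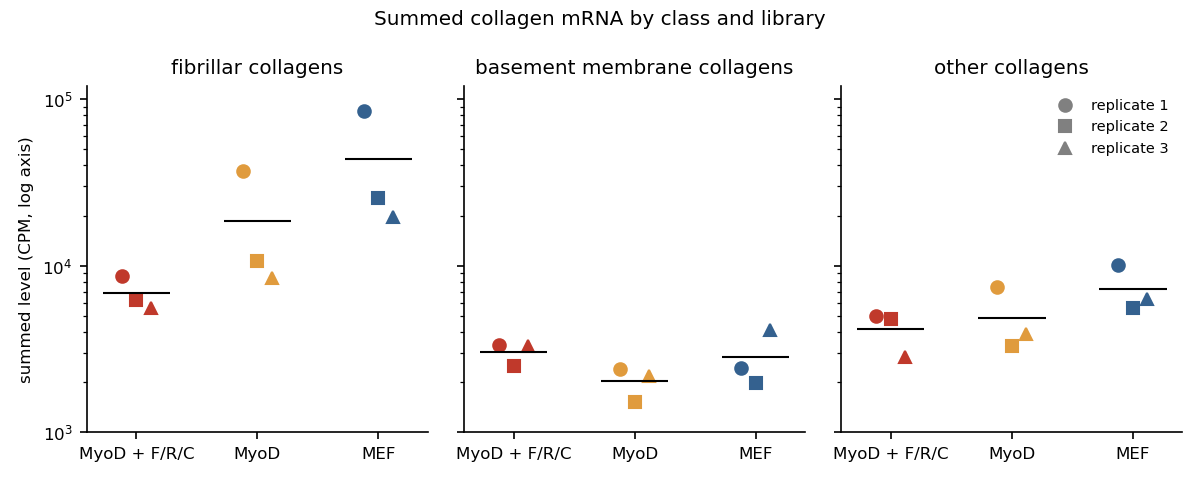
Summed CPM of the fibrillar, basement membrane and other collagens in each library (log axis), with F/R/C, MyoD and MEF from left to right, a symbol per replicate number and a bar at the group mean. The fibrillar sums lie at 5609.7 to 8732 CPM in F/R/C and 19595 to 85446 CPM in MEF libraries, while the basement membrane sums of these groups overlap.

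The make-up of collagen RNA shifted with these sums. On the TPM scale, which corrects for transcript length, fibrillar chains held 52.2, 47.2 and 46.8% of collagen transcripts in F/R/C, 82.3, 70.7 and 56.6% in MyoD and 89.95, 80.7 and 68.8% in MEF libraries. Basement membrane chains held 20.9, 21.97 and 26.4% in F/R/C, 4.28, 9.87 and 16.8% in MyoD and 1.94, 5.46 and 15.3% in MEF libraries. For both classes no F/R/C library overlapped a MyoD or MEF library. MyoD and MEF replicates 3 came nearest to F/R/C.

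**Figure D2:**
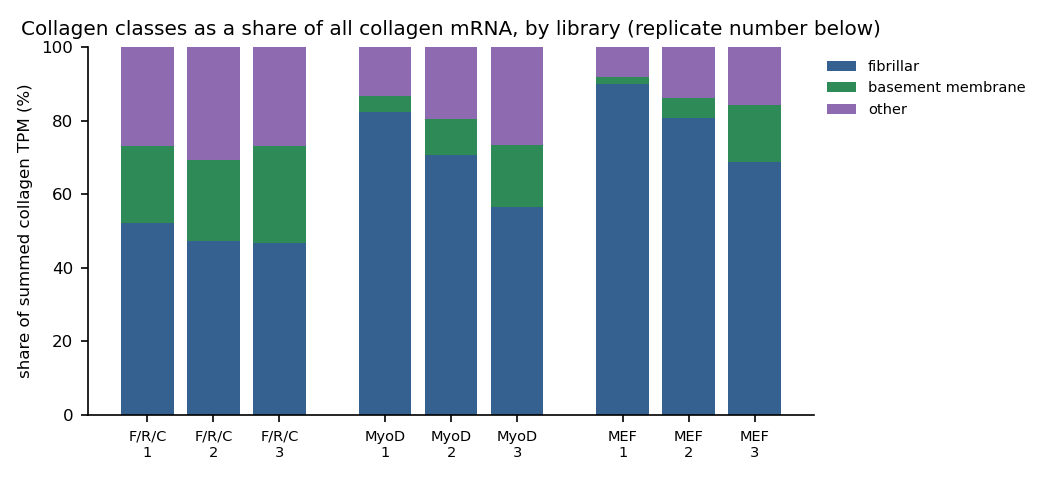
Share of summed collagen TPM (percent) held by each class in each library, F/R/C first, then MyoD and MEF, with the replicate number under each bar. The fibrillar share is 46.8% to 52.2% in F/R/C and 68.8% to 90.0% in MEF libraries.

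Across single genes, 42 of the 44 collagens passed the filter on low counts and were tested. In F/R/C against MEF libraries, 9 rose and 14 fell (edgeR, adjusted p under 0.05), or 54.8% of those tested, where 37.6% of all 15714 genes were called. By direction, 21.4% of collagens rose against 19.5% of all genes, and 33.3% fell against 18.1% of all genes. The libraries of the groups did not overlap for 10 collagens that were higher and 16 that were lower, where 27.1% and 26% of all genes were so. The median log2 fold change of the collagens was -0.59, against -0.04 over all genes. Of 11 fibrillar genes 1 rose and 6 fell (median -2.03), of 7 basement membrane genes 1 rose and 2 fell (median -0.52), and of 24 other genes 7 rose and 6 fell (median -0.01). In F/R/C against MyoD libraries 9 rose and 10 fell, or 45.2% of those tested, where 33.9% of all genes were called. By direction, 17.8% of all genes rose there and 16.1% fell, and 11 collagens were higher and 13 lower with no overlap, as were 26.6% and 23.2% of all genes. The fibrillar genes gave 0 rises and 4 falls there, the basement membrane genes 1 of each, and the others 8 rises and 5 falls. In MyoD against MEF libraries 0 collagens and 0% of all genes were called. Col13a1 and, against MyoD, Col6a5 are among these rises though they passed the filter through the F/R/C libraries alone. Over the 36 collagens that passed through more than 1 group, 8 rose and 14 fell against MEF, and 7 rose and 10 fell against MyoD. The falls against MyoD numbered 6 when F/R/C replicate 2, F/R/C replicate 3 or MyoD replicate 1 was left out. The comparisons share groups, so they are not independent of each other. F/R/C and MyoD libraries also differed in Myod1 RNA, as given above.

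**Figure D3:**
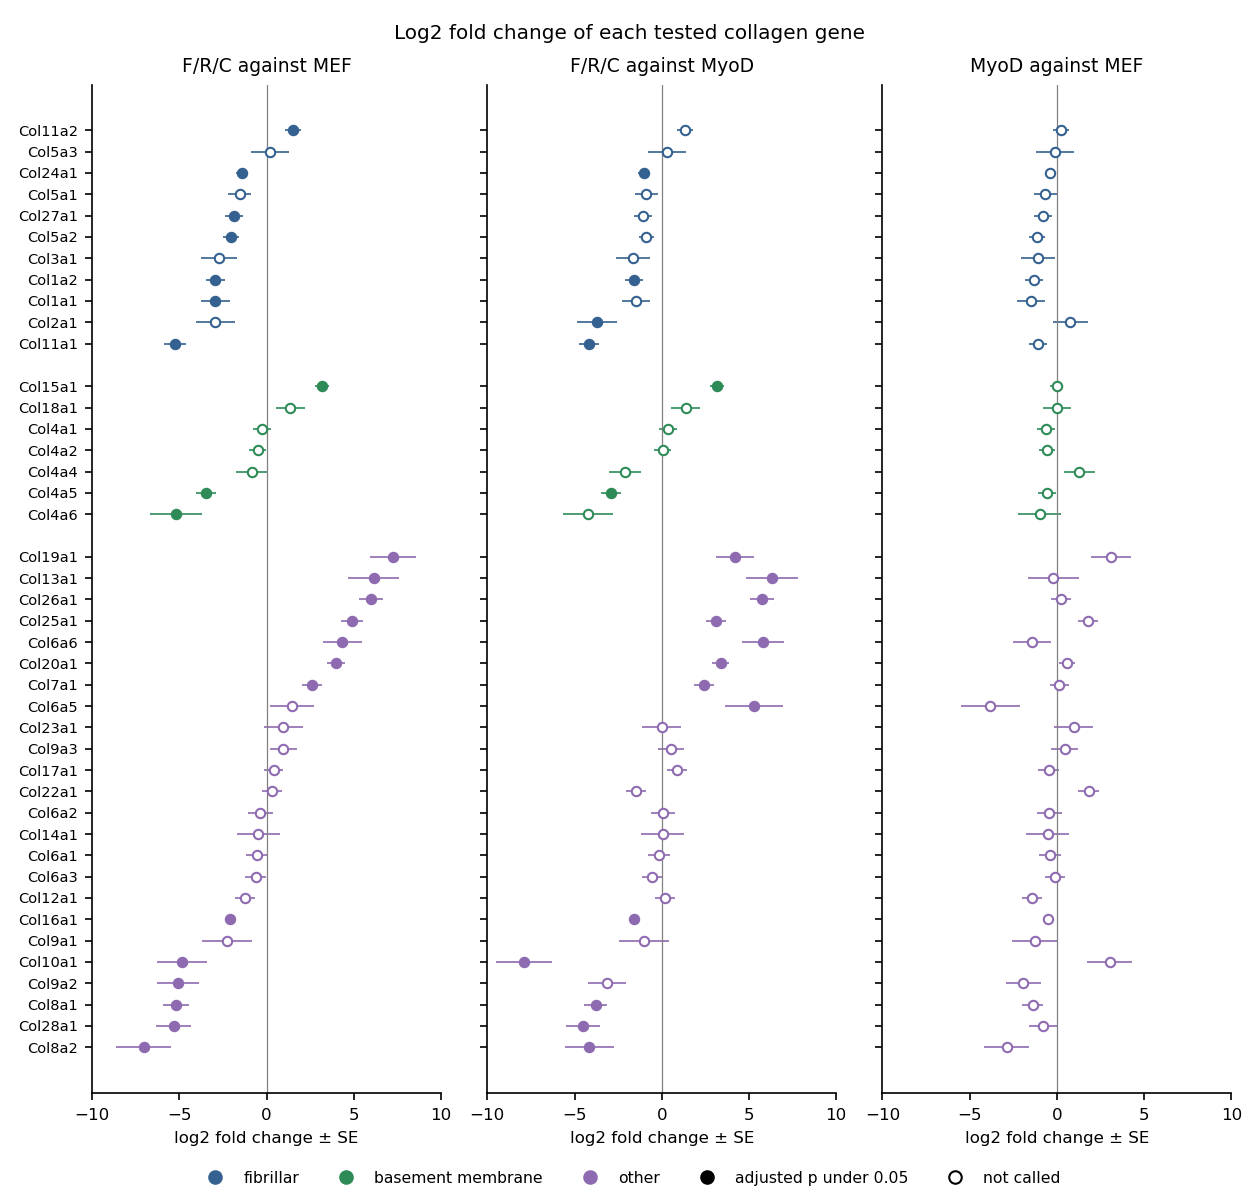
Log2 fold change ± SE of each of the 42 tested collagen genes (horizontal axis) in F/R/C against MEF, F/R/C against MyoD and MyoD against MEF, coloured by class, with filled points at an adjusted p under 0.05. Fibrillar genes lie mostly left of 0 in the first panel, while 7 filled points among the other collagens lie right of it, and no point in the last panel is filled.

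Of the fibrillar collagens, the chains of type I fell with F/R/C. Col1a1 (ENSMUSG00000001506, chromosome 11, 94936224 to 94953042, GRCm38), the chain present in 2 copies in the type I molecule, stood at 2006, 1643 and 1557 CPM in F/R/C, 9581, 2720.4 and 2030.3 CPM in MyoD and 28485, 6557 and 4888 CPM in MEF libraries. Every F/R/C library lay below every library of both other groups, and MEF replicate 1 was several times the other MEF libraries. Col1a1 fell against MEF (log2 fold change -2.94 ± 0.83, adjusted p = 0.0234) and did not pass against MyoD (-1.46 ± 0.79, adjusted p = 0.183). The call against MEF ended without MEF replicate 1 (log2 fold change -1.78, adjusted p = 0.0668) and without any 1 of the F/R/C libraries (0.0630 without replicate 1, 0.0734 without replicate 2, 0.0820 without replicate 3). Col1a2 (ENSMUSG00000029661, chromosome 6, 4504814 to 4541544), its partner chain, stood at 1264, 1234 and 896 CPM in F/R/C, 4986, 2149 and 3286 CPM in MyoD and 15339, 4751 and 5898 CPM in MEF libraries, again with no overlap. It fell against MEF (log2 fold change -2.94 ± 0.54, adjusted p = 0.00392) and against MyoD (-1.62 ± 0.52, adjusted p = 0.0402). The call against MyoD ended without MyoD replicate 1 or 3 and without any 1 of the F/R/C libraries (adjusted p = 0.0567 to 0.124).

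Col3a1 (ENSMUSG00000026043, chromosome 1, 45311538 to 45349706), the type III chain of elastic tissues and the collagen of highest mean TPM in these libraries, stood at 3485, 1888 and 1799 CPM in F/R/C, 17428, 4014 and 1046 CPM in MyoD and 32338, 10766 and 4959 CPM in MEF libraries. F/R/C lay below every MEF library but not below MyoD replicate 3. The difference from MEF missed the threshold (log2 fold change -2.74 ± 1.04, adjusted p = 0.06598), and passed it with the replicate number as a block (-2.26 ± 0.56, adjusted p = 0.0164) and without MEF replicate 3 (-3.22, adjusted p = 0.0426) or MyoD replicate 1 or 3 (0.0322 and 0.0293), by DESeq2 (0.00703) and in a fit of these groups alone (0.0282). Against MyoD it did not pass (-1.65 ± 1.00, adjusted p = 0.2303), and it did when MEF and MyoD replicates 3 were both left out (-2.17, adjusted p = 0.0428). Col5a2, a chain of the type V collagen that starts fibrils, stood at 843, 625 and 652 CPM in F/R/C and 4415, 1655 and 2588 CPM in MEF libraries and fell (log2 fold change -2.03 ± 0.46, adjusted p = 0.00916). Its partner Col5a1 stood at 808, 657 and 516 CPM in F/R/C and 3608, 1252 and 875 CPM in MEF libraries, without overlap. That difference missed the threshold (-1.53 ± 0.67, adjusted p = 0.1003) but passed with the replicate block (-1.23 ± 0.33, adjusted p = 0.0224), by DESeq2 (adjusted p = 0.0477) and without MEF and MyoD replicates 3 (0.0355).

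Among the fibrillar genes called against MEF, the largest fold change was that of Col11a1 (ENSMUSG00000027966, chromosome 3, 114030540 to 114220718), a type XI chain known from cartilage that also joins the fibrils of other tissues. It stood at 11.2, 14.6 and 8.499 CPM in F/R/C, 217, 95.8 and 310.3 CPM in MyoD and 765, 274 and 277 CPM in MEF libraries. The F/R/C libraries were far below all others, and the fall passed against MEF (log2 fold change -5.26 ± 0.62, adjusted p = 0.000652) and against MyoD (-4.18 ± 0.59, adjusted p = 0.00179). Col24a1 and Col27a1, fibrillar chains described in developing bone and cartilage, were low genes in every group. Col24a1 stood at 19.9, 14.04 and 11.3 CPM in F/R/C, 36.3, 28.9 and 27.4 CPM in MyoD and 35.1, 27.4 and 58.4 CPM in MEF libraries, and fell against both (-1.41 and -1.03 on the log2 scale). The call against MyoD ended without MyoD replicate 1 or 2 or F/R/C replicate 2 or 3 (adjusted p = 0.0727 to 0.114). Col27a1 stood at 16.1, 12.99 and 5.28 CPM in F/R/C and 70.2, 36.2 and 20.02 CPM in MEF libraries, a fall (-1.88 ± 0.54, adjusted p = 0.0241) that did not hold without MEF replicate 1 or without F/R/C replicate 2 or 3 (0.0585 to 0.0719).

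Col2a1, the chain of cartilage type II collagen, was barely present. It stood at 0.294, 0.547 and 0.9603 CPM in F/R/C, 7.61, 15.1 and 1.01 CPM in MyoD and 6.88, 6.400 and 0.5998 CPM in MEF libraries, and MyoD and MEF replicates 3 were near the F/R/C level. It fell against MyoD (log2 fold change -3.71 ± 1.13, adjusted p = 0.0337), a call that ended with the omission of MyoD replicate 1 or 2 or of any F/R/C library (0.0639 to 0.104), with the replicate block (0.0802) and with counts scaled from TPM (0.0576). Against MEF it did not pass (-2.94 ± 1.10, adjusted p = 0.0641), and passed when MEF replicate 3 was left out (-3.52, adjusted p = 0.0230) or MyoD replicate 3 (0.0292), by DESeq2 (0.00969) and in a fit of these groups alone (0.0434). The exception in direction was Col11a2, the partner of Col11a1, at 5.29, 3.01 and 4.27 CPM in F/R/C, 1.39, 1.699 and 1.97 CPM in MyoD and 2.42, 0.845 and 1.11 CPM in MEF libraries. It rose against MEF (1.52 ± 0.47, adjusted p = 0.0316), but with counts scaled from TPM the difference was 0.74 (adjusted p = 0.253), and the call also ended without MEF replicate 2 or 3 or F/R/C replicate 1 or 3. Col5a3, a minor type V chain, spread widely in all groups, at 274, 133 and 159 CPM in F/R/C, 382, 65.7 and 19.00 CPM in MyoD and 382, 83.7 and 30.9 CPM in MEF libraries, and was not called.

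Markers of cell identity were read beside these values. Of 16 fibroblast markers 0 rose and 3 fell (18.8%) against MEF, where 18.1% of all genes fell, and their summed level was 4620.3, 4902 and 3404 CPM in F/R/C, 9101, 7490.1 and 21091 CPM in MyoD and 14306, 9624 and 12843 CPM in MEF libraries. All 18 skeletal muscle markers rose against MEF, among them Myod1, the gene of the factor that was added. In MEF replicate 1, Myh2, Myh4 and Tcap were at 0, and in MEF replicate 2, Myh2 was. Of 7 tested cartilage and bone markers 4 fell (57.1%), with sums of 42.2, 43.7 and 25.9 CPM in F/R/C, 438, 187 and 70.6 CPM in MyoD and 473, 272 and 68.7 CPM in MEF libraries. Snorc was at 0 in every library, and Acan in F/R/C replicates 1 and 3. Of 6 tendon markers 1 rose and 3 fell, with sums of 41.9, 77.6 and 26.4 CPM in F/R/C, 34.6, 30.97 and 99.00 CPM in MyoD and 249, 109.7 and 136 CPM in MEF libraries. Among tested markers of other cells, 0 rose and 2 fell of 3 endothelial, 2 rose and 0 fell of 4 macrophage, 1 rose and 1 fell of 2 epithelial, 1 rose and 2 fell of 9 smooth muscle and pericyte, 0 rose and 1 fell of 4 Schwann and neural, and 0 changed of 6 adipocyte markers. Of all genes 19.5% rose and 18.1% fell in this comparison. Cdh1, the epithelial marker that rose, and Itgam, a macrophage marker, passed the filter on low counts through the F/R/C libraries alone, so these counts are a description. The part of such cell types in the collagen differences was not tested.

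**Figure D4:**
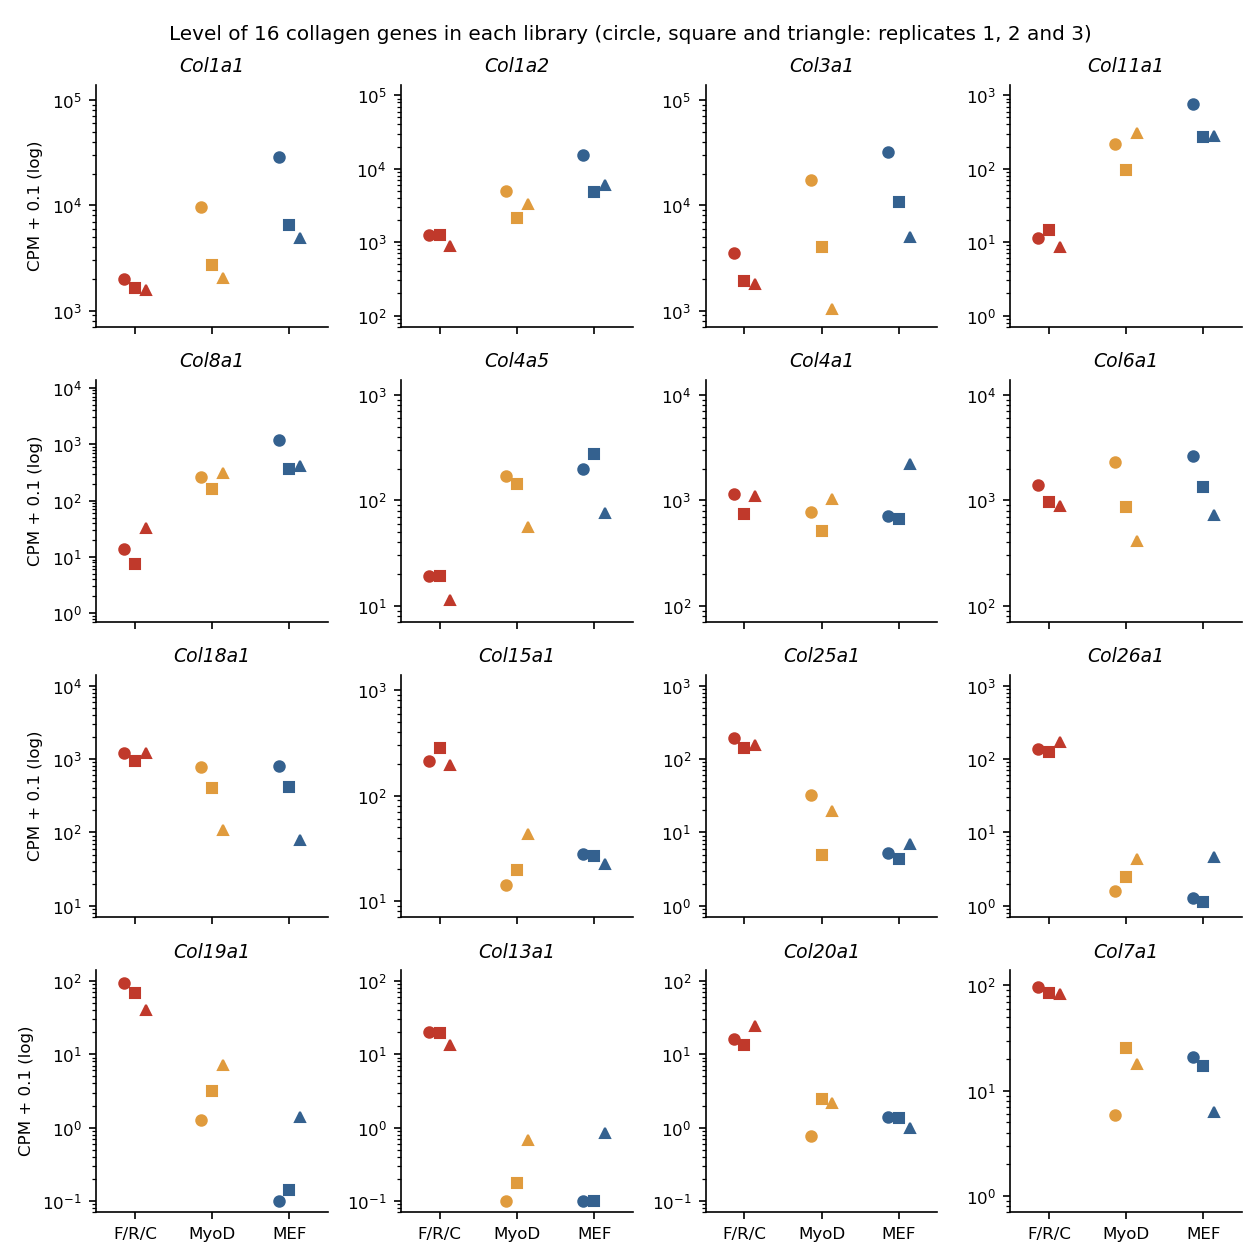
CPM + 0.1 (log axis, scaled for each gene) of 16 collagen genes in each library, with F/R/C, MyoD and MEF from left to right and a symbol per replicate number. Col1a1, Col1a2, Col11a1, Col8a1 and Col4a5 lie lowest in the F/R/C libraries, and Col15a1, Col25a1, Col26a1, Col19a1, Col13a1, Col20a1 and Col7a1 lie highest there.

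Among the basement membrane collagens, the common type IV pair stayed within the spread while the X-linked pair fell. Col4a1 and Col4a2 encode the chains of the type IV network found in nearly all basement membranes, and Col4a5 and Col4a6 encode chains of more restricted networks, among them that around smooth muscle. In each pair the genes lie head to head on opposite strands. Col4a1 (ENSMUSG00000031502, chromosome 8, 11198423 to 11312826, minus strand) and Col4a2 (ENSMUSG00000031503, chromosome 8, 11312805 to 11449287, plus strand) have RefSeq starts close enough that their 300-base windows, from 250 bases before to 50 after the start, overlap by 78 bases. The starts of Col4a6 (ENSMUSG00000031273, chromosome X, 141165403 to 141474076, minus strand) and Col4a5 (ENSMUSG00000031274, chromosome X, 141475385 to 141689234, plus strand) lie 1343 bases apart. The 4 windows are shown because they set a pair whose windows overlap beside a pair whose windows do not, at the RefSeq starts used here. Other starts of these genes were not examined. They were read 5′ to 3′ on the gene's strand from RefSeq on GRCm38.p6, at chr8:11312777-11313076 for Col4a1, chr8:11312555-11312854 for Col4a2, chrX:141475169-141475468 for Col4a5 and chrX:141474027-141474326 for Col4a6. Capitals mark CCAAT on either strand (which reads ATTGG on the other), the box bound by the factor NF-Y.
Col4a1: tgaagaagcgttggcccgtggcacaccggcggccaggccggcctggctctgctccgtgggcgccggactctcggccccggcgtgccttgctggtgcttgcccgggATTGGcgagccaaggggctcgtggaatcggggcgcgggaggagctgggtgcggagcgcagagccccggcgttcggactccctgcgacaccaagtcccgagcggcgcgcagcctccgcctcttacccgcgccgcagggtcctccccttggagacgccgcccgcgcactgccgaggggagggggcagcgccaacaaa
Col4a2: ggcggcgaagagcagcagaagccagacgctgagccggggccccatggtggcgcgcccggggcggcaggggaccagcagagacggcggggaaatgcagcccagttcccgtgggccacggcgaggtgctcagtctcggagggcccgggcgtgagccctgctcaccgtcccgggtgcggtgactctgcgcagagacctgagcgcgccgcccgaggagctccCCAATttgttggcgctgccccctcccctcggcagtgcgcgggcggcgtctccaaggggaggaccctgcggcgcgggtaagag
Col4a5: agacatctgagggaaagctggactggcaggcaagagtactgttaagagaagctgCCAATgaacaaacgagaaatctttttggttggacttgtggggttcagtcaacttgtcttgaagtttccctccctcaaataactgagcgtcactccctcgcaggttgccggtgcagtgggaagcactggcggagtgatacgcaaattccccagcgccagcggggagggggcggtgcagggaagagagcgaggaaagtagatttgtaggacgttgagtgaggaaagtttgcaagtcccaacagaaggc
Col4a6: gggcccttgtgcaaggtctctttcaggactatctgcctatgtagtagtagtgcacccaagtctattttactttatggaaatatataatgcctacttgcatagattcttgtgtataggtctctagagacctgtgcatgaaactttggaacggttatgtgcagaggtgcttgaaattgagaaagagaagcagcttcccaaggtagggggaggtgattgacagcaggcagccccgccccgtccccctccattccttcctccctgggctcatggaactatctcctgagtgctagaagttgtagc
Col4a1, Col4a2 and Col4a5 held 1 CCAAT each and Col4a6 held 0. Of all 32851 RefSeq windows of this length 37.4% held CCAAT, and of 38 windows that matched 35 collagen genes 13 did (34.2%). CANNTG, the core bound by MyoD and related factors, was in 72.3% of all windows and 52.6% of collagen windows, and in Col4a5 alone of these 4. CAGCTG, a form of it, was in 16.3% and 18.4%, and TATAAA in 13.6% and 13.2%. Such matches describe letters in these windows and were not tied to binding.

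Col4a1 stood at 1153, 751 and 1093 CPM in F/R/C, 779, 507 and 1038 CPM in MyoD and 714, 666 and 2228 CPM in MEF libraries. Col4a2 stood at 791, 504 and 780.2 CPM in F/R/C, 644, 424 and 935 CPM in MyoD and 682, 558 and 1735 CPM in MEF libraries. The groups overlapped for both, and MEF replicate 3 held the highest level of each. Neither passed against MEF (-0.27 ± 0.50 for Col4a1 and -0.52 ± 0.47 for Col4a2, adjusted p = 0.699 and 0.416), and without MEF replicate 3 both values turned positive (0.48 and 0.11). The ratio of Col4a1 to Col4a2 in summed TPM was 2.53, 2.68 and 1.89 in F/R/C, 1.999, 2.16 and 2.01 in MyoD and 1.59, 1.99 and 2.27 in MEF libraries. These sums include Col4a1 transcripts that span part of the gene, such as Col4a1-206, so the ratio depends on the transcripts counted. Col4a1-201 alone stood at 263, 163 and 186 TPM in F/R/C, 210, 140 and 248 TPM in MyoD and 191, 180 and 565 TPM in MEF libraries. Col4a2-201 stood at 208, 126 and 152 TPM, 195, 137 and 259 TPM and 200, 170 and 505 TPM in the same order. Their exons overlap by 22 bases on opposite strands.

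Col4a5 stood at 19.01, 19.2 and 11.1 CPM in F/R/C, 171, 143 and 56.1 CPM in MyoD and 198, 277 and 75.3 CPM in MEF libraries. The F/R/C libraries lay below all others, and the fall passed against MEF (log2 fold change -3.48 ± 0.57, adjusted p = 0.00247) and MyoD (-2.90 ± 0.56, adjusted p = 0.005896). Col4a6 was low and carried by the second library of MEF and MyoD, at 0.0839, 1.003 and 0.288 CPM in F/R/C, 2.77, 20.9 and 2.36 CPM in MyoD and 4.65, 43.9 and 2.86 CPM in MEF libraries. Its F/R/C libraries held 2, 22 and 6 counts, so the size of its fold changes depends on few counts. Col4a6 fell against MEF (log2 fold change -5.22 ± 1.5, adjusted p = 0.0246), a call lost without MEF replicate 2 (-3.08, adjusted p = 0.0871) and without F/R/C replicate 1 or 3 (0.0769 and 0.0917). It missed the threshold against MyoD (-4.24 ± 1.45, adjusted p = 0.0504), and passed it without any 1 of the MEF libraries or MyoD replicate 3 (adjusted p = 0.0267 to 0.0485). In all, 12 of 19 alternatives called this difference, among them DESeq2 (adjusted p = 0.00138) and a fit of F/R/C and MyoD alone (0.0295). Col4a3 and Col4a4, chains of the kidney and lung networks, were low. Col4a4, at 0.2098, 0.4103 and 0.04802 CPM in F/R/C, 0.8504, 0.189 and 1.97 CPM in MyoD and 0.372, 0.242 and 0.5998 CPM in MEF libraries, was tested through the MyoD libraries alone and not called, and Col4a3, at most 3.46 CPM (MyoD replicate 3), was not tested.

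Col15a1 (ENSMUSG00000028339, chromosome 4, 47208161 to 47313167), whose loss in mice causes a mild muscle disease, was the basement membrane collagen that rose. It stood at 212, 283 and 193 CPM in F/R/C, 14.1, 19.7 and 42.8 CPM in MyoD and 27.5, 26.7 and 22.4 CPM in MEF libraries. Every F/R/C library exceeded every other library, and the rise was alike against MEF (log2 fold change 3.17 ± 0.40, adjusted p = 0.000879) and MyoD (3.17 ± 0.40, adjusted p = 0.00131). Col18a1 (ENSMUSG00000001435, chromosome 10, 77052178 to 77166548), the related gene whose product releases the fragment endostatin, stood at 1189.6, 939 and 1209 CPM in F/R/C, 784, 406 and 108 CPM in MyoD and 803, 412 and 78.3 CPM in MEF libraries. The F/R/C libraries lay above all others, which spread widely, with replicate 3 lowest in both groups. Col18a1 did not pass against MEF (1.37 ± 0.83, adjusted p = 0.222) except with the replicate block (2.03 ± 0.68, adjusted p = 0.0474), nor against MyoD (1.36 ± 0.83, adjusted p = 0.232). Of its transcripts, Col18a1-202, which spans the whole annotated gene (77052178 to 77166548), averaged 327 ± 58.1 TPM in F/R/C, 154 ± 116 TPM in MyoD and 147 ± 124 TPM in MEF libraries. Col18a1-201, which spans 77053194 to 77113946, averaged 0.168 ± 0.0954 TPM in F/R/C, 5.44 ± 6.97 TPM in MyoD and 5.73 ± 5.56 TPM in MEF libraries. Neither passed against MEF (adjusted p = 0.278 and 0.0508).

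The laminins, nidogens and other partners of type IV collagen in basement membranes were mostly not called. Of 14 such genes 0 rose and 3 fell (21.4%) against MEF, near the 18.1% of all genes that fell, with a median log2 fold change of -0.56. Lamb1, a laminin chain, averaged 281 ± 100.3 CPM in F/R/C and 919.9 ± 432 CPM in MEF libraries (-1.71 ± 0.42, adjusted p = 0.0129). Sparc, a collagen-binding glycoprotein, averaged 1291 ± 47.8 CPM in F/R/C and 4832 ± 2541 CPM in MEF libraries (-1.90 ± 0.49, adjusted p = 0.0154), and Lamb2 fell by 0.64 on the log2 scale. Against MyoD 1 rose and 2 fell. The one that rose was Lama2, the laminin chain of muscle basement membrane, at 87.04, 73.3 and 47.97 CPM in F/R/C, 14.6, 10.7 and 20.9 CPM in MyoD and 61.3, 12.2 and 19.5 CPM in MEF libraries (2.17 ± 0.58, adjusted p = 0.0203).

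Outside these classes, 7 collagens rose with F/R/C against MEF, Col6a6, Col7a1, Col13a1, Col19a1, Col20a1, Col25a1 and Col26a1. Col25a1 (ENSMUSG00000058897, chromosome 3, 130131501 to 130599877), a membrane-spanning collagen that motor axons need to innervate muscle in mice, stood at 191, 142 and 157 CPM in F/R/C, 32.3, 4.83 and 19.2 CPM in MyoD and 5.21, 4.23 and 6.92 CPM in MEF libraries. F/R/C lay above all other libraries, and 2 of the 3 MyoD libraries lay above all MEF libraries. It rose against MEF (log2 fold change 4.91 ± 0.63, adjusted p = 0.000913) and MyoD (3.12 ± 0.58, adjusted p = 0.00519). Col13a1, a membrane collagen of the neuromuscular junction, stood at 469, 421 and 273 counts in F/R/C, 0, 2 and 12 in MyoD and 0, 0 and 16 in MEF libraries, or 19.7, 19.2 and 13.1 CPM in F/R/C. It was at or near 0 outside F/R/C except in replicates 3. It passed the filter on low counts through the F/R/C libraries alone, where it is high, so that its calls against MEF (adjusted p = 0.0122) and MyoD (adjusted p = 0.0131) are given as a description. The call against MyoD ended without MyoD replicate 2 (adjusted p = 0.0517). No fold is given, since it would depend on those few counts.

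Col19a1 (ENSMUSG00000026141, chromosome 1, 24261890 to 24587472), a fibril-associated collagen expressed in differentiating muscle cells, stood at 94.6, 67.5 and 40.4 CPM in F/R/C, 1.16, 3.097 and 6.93 CPM in MyoD and 0, 0.0403 and 1.29 CPM in MEF libraries. Its counts in MEF were 0, 1 and 28, so MEF replicate 3 held nearly all of them. It rose against MEF (log2 fold change 7.25 ± 1.30, adjusted p = 0.00348) and MyoD (4.18 ± 1.09, adjusted p = 0.0192), but against MyoD not without MyoD replicate 1 or 2 or F/R/C replicate 1 (adjusted p = 0.0560 to 0.0712). Col26a1 (ENSMUSG00000004415, chromosome 5, 136741759 to 136883209), a short collagen-like gene of developing gonads, showed one of the largest rises, at 137, 125 and 169.7 CPM in F/R/C, 1.48, 2.38 and 4.19 CPM in MyoD and 1.16, 1.05 and 4.57 CPM in MEF libraries (5.99 ± 0.68, adjusted p = 0.000592 against MEF, and 5.75 ± 0.67, adjusted p = 0.000979 against MyoD). Col20a1 stood at 15.8, 13.2 and 24.4 CPM in F/R/C, 0.671, 2.38 and 2.07 CPM in MyoD and 1.302, 1.25 and 0.877 CPM in MEF libraries and rose against both (3.95 and 3.38). Its exons share 79 bases on the same strand with BX649560.1, which held up to 543 counts, so its level is uncertain.

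The window before Col25a1 and that before Col1a2 are shown as examples of a collagen that rose and one that fell, from RefSeq at chr3:130180595-130180894 and chr6:4505368-4505667 on GRCm38.p6, plus strand, with CCAAT on either strand in capitals.
Col25a1: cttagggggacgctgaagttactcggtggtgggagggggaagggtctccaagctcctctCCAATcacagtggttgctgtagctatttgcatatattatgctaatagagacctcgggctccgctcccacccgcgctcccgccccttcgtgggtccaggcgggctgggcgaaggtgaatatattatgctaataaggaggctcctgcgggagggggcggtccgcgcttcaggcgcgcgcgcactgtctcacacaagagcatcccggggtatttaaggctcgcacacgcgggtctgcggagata
Col1a2: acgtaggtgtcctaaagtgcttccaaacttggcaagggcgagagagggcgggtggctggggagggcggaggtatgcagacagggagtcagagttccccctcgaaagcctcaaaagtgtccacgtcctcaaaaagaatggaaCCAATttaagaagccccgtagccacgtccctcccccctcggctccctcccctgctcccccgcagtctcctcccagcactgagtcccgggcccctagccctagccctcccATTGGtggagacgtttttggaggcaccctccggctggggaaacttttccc
Both windows held CCAAT, 1 in Col25a1 and 2 in Col1a2, and neither held any of the other motifs searched.

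Col6a6 and Col7a1 rose as well. Col6a6, a chain of the beaded-filament type VI family, stood at 32.4, 20.8 and 20.7 CPM in F/R/C, 0.537, 0 and 0.818 CPM in MyoD and 2.09, 0.121 and 1.43 CPM in MEF libraries and rose against both (4.35 and 5.79). Col7a1, the anchoring fibril chain of skin, stood at 95.98, 85.2 and 82.1 CPM in F/R/C, 5.73, 25.3 and 17.8 CPM in MyoD and 20.7, 17.3 and 6.14 CPM in MEF libraries and rose against both (2.58 and 2.43). Col6a5 was called against MyoD alone (adjusted p = 0.0391), from 69, 3 and 21 counts in F/R/C and 0, 0 and 2 counts in MyoD libraries. It too passed the filter through the F/R/C libraries alone, and its MyoD libraries are at the floor, so no fold is given. The call was absent with a filter at a mean of 1 CPM and in a fit of F/R/C and MyoD alone, and it ended without F/R/C replicate 1 or 3 or any 1 of the MyoD libraries (0.0538 to 0.120).

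The 3 abundant type VI chains, whose loss in humans causes muscle weakness, were not called in any comparison. Col6a1 stood at 1388, 962 and 882 CPM in F/R/C, 2312, 873 and 409 CPM in MyoD and 2630.3, 1335 and 734 CPM in MEF libraries, with overlap of all groups. The log2 fold change against MEF was -0.54 ± 0.64 for Col6a1, -0.36 ± 0.70 for Col6a2 and -0.63 ± 0.58 for Col6a3 (adjusted p = 0.542, 0.715 and 0.418). Without MEF replicate 1 the values of Col6a1 and Col6a2 turned to 0.0033 and 0.25. The ratio of Col6a1 to Col6a2 in TPM was 1.32, 1.42 and 1.34 in F/R/C, 1.53, 1.799 and 1.94 in MyoD and 1.54, 1.75 and 1.52 in MEF libraries, lower in each F/R/C library than in every other. It was 1 of 5 chain ratios examined, and 3 libraries against 3 allow no two-sided exact p under 0.1.

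All 3 chains of the short networks, Col8a1, Col8a2 and Col10a1, fell against MEF, as did Col9a2, Col16a1 and Col28a1. Col8a1 (ENSMUSG00000068196, chromosome 16, 57624258 to 57754737), a network chain of blood vessels and cornea, stood at 13.5, 7.52 and 32.1 CPM in F/R/C, 266, 160.0 and 314 CPM in MyoD and 1173, 361 and 407 CPM in MEF libraries. It fell against MEF (log2 fold change -5.19 ± 0.72, adjusted p = 0.00125) and MyoD (-3.80 ± 0.68, adjusted p = 0.00447). Its partner Col8a2 stood at 0.0839, 2.96 and 0.816 CPM in F/R/C, 28.7, 35.8 and 4.23 CPM in MyoD and 391, 100.5 and 17.2 CPM in MEF libraries, with MEF replicate 1 highest, and fell against both (-7.04 and -4.15). Its F/R/C libraries held 2, 65 and 17 counts, so the size of these falls depends on few counts. The call against MyoD did not hold without MEF replicate 2, MyoD replicate 1 or 2 or any F/R/C library (adjusted p = 0.0509 to 0.147).

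Col10a1 (ENSMUSG00000039462, chromosome 10, 34389981 to 34397085), the marker of enlarged cartilage cells, stood at 4.03, 0.456 and 0.4802 CPM in F/R/C, 279, 24.9 and 882 CPM in MyoD and 55.96, 11.6 and 78.2 CPM in MEF libraries. MyoD replicates 1 and 3 were the highest libraries and F/R/C the lowest. It fell against MyoD (log2 fold change -7.88 ± 1.62, adjusted p = 0.00756) and against MEF (-4.86 ± 1.42, adjusted p = 0.0263). The call against MEF ended without F/R/C replicate 2 or 3 (adjusted p = 0.0831 and 0.0935). Its exons overlap those of Nt5dc1 on the other strand by 18 bases. Col9a2, a cartilage chain, stood at 0.462, 1.05 and 0.336 CPM in F/R/C, 9.26, 6.53 and 0.577 CPM in MyoD and 41.5, 17.3 and 3.64 CPM in MEF libraries and fell against MEF (-5.07). Against MyoD it missed the threshold (-3.14 ± 1.11, adjusted p = 0.0571), and passed it without MEF replicate 1 or 3 or MyoD replicate 3 (adjusted p = 0.0184 to 0.0476). In all, 10 of 19 alternatives called this difference, among them DESeq2 (adjusted p = 0.00496) and a fit of F/R/C and MyoD alone (0.0403). Col16a1, a fibril-associated collagen of many tissues, fell with little spread within groups, at 107, 128 and 92.1 CPM in F/R/C, 414, 316 and 246 CPM in MyoD and 587, 465 and 358 CPM in MEF libraries (-2.11 ± 0.28, adjusted p = 0.00101 against MEF, and -1.58 ± 0.27, adjusted p = 0.00398 against MyoD). Col28a1 stood at 0.462, 0.0456 and 0.04802 CPM in F/R/C, 7.56, 3.21 and 2.55 CPM in MyoD and 7.07, 2.898 and 13.5 CPM in MEF libraries and fell against both (-5.33 and -4.51). Its F/R/C libraries held 11, 1 and 1 counts.

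Of these other collagens, Col12a1 and Col14a1, fibril-associated collagens of tendon and dermis, Col22a1, Col23a1, Col17a1, Col9a1 and Col9a3 were also called in no comparison. Col12a1 stood at 753, 1779 and 327 CPM in F/R/C, 956, 750.3 and 787 CPM in MyoD and 1628, 1630.0 and 3508 CPM in MEF libraries. It did not pass against MEF (-1.24 ± 0.58, adjusted p = 0.121), but it did without F/R/C replicate 2, its highest F/R/C library (-2.07, adjusted p = 0.0235). Col14a1, at 6.17, 4.83 and 13.7 CPM in F/R/C and 1.12, 22.2 and 0.385 CPM in MyoD libraries, passed against MyoD once MyoD replicate 2 was left out (3.42, adjusted p = 0.0343). Col22a1, a collagen of the muscle-tendon junction, stayed low, at 1.55, 0.775 and 1.200 CPM in F/R/C, 2.82, 4.34 and 2.79 CPM in MyoD and 1.44, 1.09 and 0.277 CPM in MEF libraries. Every F/R/C library lay below every MyoD library. That difference missed the threshold (-1.49 ± 0.58, adjusted p = 0.0763), and passed it by DESeq2 (adjusted p = 0.0315), in a fit of F/R/C and MyoD alone (0.0315), with counts scaled from TPM (0.0321) and without MEF replicate 3 (0.0244). Col9a1, Col9a3, Col13a1, Col17a1, Col4a4 and Col6a5 entered the test only through the libraries of 1 group, and Col4a3 and Col6a4 did not enter it.

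MyoD alone was set against untreated MEFs to ask which collagens move without the small molecules, at Myod1 RNA levels far below those of F/R/C. In this comparison edgeR called 0 of 18 skeletal muscle markers, though their median log2 fold change was 3.56. A lack of calls here therefore does not show a lack of change. None of the 42 collagens passed (0 by edgeR and 0 by DESeq2), with 8 at an unadjusted p under 0.05 (edgeR). Of these Col25a1, Col22a1, Col19a1 and Col10a1 were higher with MyoD, as 3.35% of all genes were at that p, and Col5a2, Col1a2, Col12a1 and Col8a2 were lower, as 1.31% of all genes were. The log2 fold change was negative for 29 of 42 and its median was -0.50, against -0.01 over all genes. The smallest adjusted p were those of Col25a1 (1.78 ± 0.56, adjusted p = 0.663) and Col22a1 (1.82 ± 0.59, adjusted p = 0.697). Col19a1 did not pass (3.07 ± 1.15, adjusted p = 0.886), and passed once MEF replicate 3 was left out (7.13 ± 1.22, adjusted p = 0.0380), when the remaining MEF libraries held 0 and 1 counts. The groups did not overlap for 1 collagen that was higher with MyoD, Col22a1, and for 2 that were lower, Col12a1 (-1.44 ± 0.58, adjusted p = 0.984) and Col8a1, where 4.4% and 3.11% of all genes were so.

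Libraries of equal number in MyoD and MEF deviated together, so they were also read as pairs. Of 42 collagens 20 (47.6%) were lower in the MyoD library of all 3 pairs, where 19.4% of all genes were, and 5 (11.9%) were higher in all 3, where 17.4% of all genes were. The 20 held 7 of the 11 fibrillar genes, Col1a1, Col1a2, Col3a1, Col5a1, Col5a2, Col5a3 and Col27a1. No least difference was required, for collagens or for all genes. Col5a3 was at 382.04 CPM in MyoD replicate 1 and 382.26 CPM in MEF replicate 1. Col6a5, also among the 20, held 0 counts in MyoD replicate 2 and 1 in MEF replicate 2. The 5 were Col2a1, Col10a1, Col19a1, Col22a1 and Col25a1. In F/R/C against MEF, the same reading gave 17 collagens (40.5%) lower in all 3 pairs, where 33.5% of all genes were, and 12 (28.6%) higher, where 32.7% were. With the replicate number as a block 0 collagens were called between MyoD and MEF, and 13 genes of all tested.

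The genes that make and handle collagens were followed in lists by role, to be read against the 19.5% of all genes that rose and 18.1% that fell against MEF, and the 17.8% that rose and 16.1% that fell against MyoD. Of 18 tested genes that hydroxylate or fold procollagen chains in the endoplasmic reticulum, 1 rose and 9 fell (50%) against MEF (median log2 fold change -0.90), and 1 rose and 7 fell (38.9%) against MyoD. P4ha3, a subunit of the prolyl hydroxylase that steadies the helix, averaged 5.03 ± 2.99 CPM in F/R/C and 103 ± 25.02 CPM in MEF libraries (SD, n = 3 each; -4.35 ± 0.50, adjusted p = 0.000592). P3h3, a prolyl hydroxylase family member, averaged 56.5 ± 13.96 CPM in F/R/C and 405 ± 73.2 CPM in MEF libraries (-2.84 ± 0.30, adjusted p = 0.000468). Fkbp14, a folding enzyme, averaged 15.03 ± 1.51 CPM in F/R/C and 87.7 ± 24.6 CPM in MEF libraries (-2.54 ± 0.26, adjusted p = 0.000438). Tmem38b, an ion channel of the endoplasmic reticulum, rose, at 69.6 ± 1.098 CPM in F/R/C and 10.8 ± 6.17 CPM in MEF libraries (2.68 ± 0.42, adjusted p = 0.00195).

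Of 11 export genes, which carry procollagen out of the endoplasmic reticulum, 1 rose and 2 fell (18.2%) against MEF and 1 rose and 2 fell against MyoD, shares of falls near those of all genes. Creb3l1, a transcription factor that turns on collagen secretion, averaged 18.5 ± 3.29 CPM in F/R/C and 104 ± 43.2 CPM in MEF libraries (-2.49 ± 0.37, adjusted p = 0.00153), and Klhl12, an adaptor for large transport vesicles, rose (0.82). Of 9 genes that trim the ends of procollagen, 1 rose and 5 fell (55.6%) against MEF and 3 rose (33.3%) and 4 fell (44.4%) against MyoD. Pcolce, an enhancer of the enzyme that removes the C-terminal end, averaged 129.7 ± 27.8 CPM in F/R/C, 1172 ± 179 CPM in MyoD and 1360.0 ± 199 CPM in MEF libraries (-3.39 ± 0.27, adjusted p = 0.000227 against MEF). Bmp1, that enzyme, fell against MEF (-1.74 ± 0.26, adjusted p = 0.00151). Tll2, a relative of Bmp1, stood at 8.31, 5.24 and 2.64 CPM in F/R/C libraries, against at most 0.144 CPM in any MyoD or MEF library, about the level of 3 counts. Like Col13a1, Tll2 passed the filter on low counts through the F/R/C libraries alone, where it is high. Its call against MEF (adjusted p = 0.00115), counted among the rises of this list, is therefore given as a description.

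Of 7 cross-linking genes, 1 rose and 4 fell (57.1%) against MEF and 2 rose (28.6%) and 3 fell (42.9%) against MyoD. Lox, the lysyl oxidase that joins fibrillar chains, stood at 202, 138 and 64.8 CPM in F/R/C, 2532, 718 and 712 CPM in MyoD and 9998, 2425 and 1825 CPM in MEF libraries, and fell against both (-5.14 ± 0.92, adjusted p = 0.00352 against MEF). Loxl3 averaged 40.6 ± 5.38 CPM in F/R/C and 398 ± 87.8 CPM in MEF libraries (-3.29 ± 0.27, adjusted p = 0.000233), Loxl4 fell by 3.06 on the log2 scale, and Tgm2, a transglutaminase, rose by 1.75. Of 10 tested receptors 0 rose and 3 fell (30%) against MEF, and 1 rose and 3 fell against MyoD. Those that fell against MEF were Mrc2, which takes up collagen for breakdown (-2.23 ± 0.31, adjusted p = 0.00132), Ddr2, a kinase activated by fibrillar collagen (-1.43 ± 0.32, adjusted p = 0.00845), and the integrin chain Itga11 (-3.91 ± 0.99, adjusted p = 0.0147). In MyoD against MEF libraries no gene of these 6 lists was called.

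**Figure D5:**
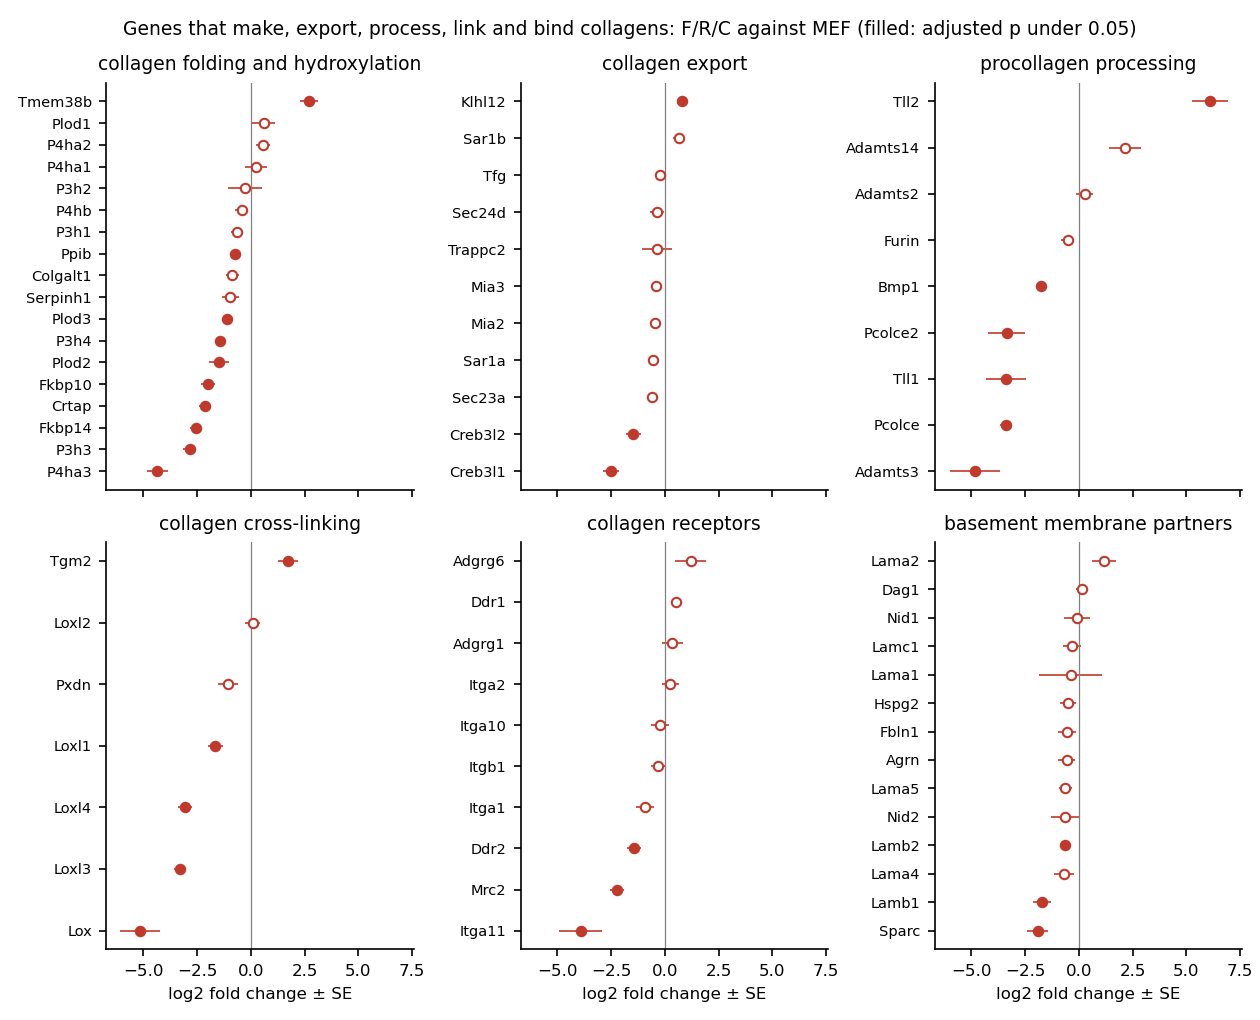
Log2 fold change ± SE in F/R/C against MEF libraries (horizontal axis) of the tested genes of 6 lists that make, export, process, cross-link, bind or accompany collagens, with filled points at an adjusted p under 0.05. Filled points lie mostly left of 0, among them P4ha3 (-4.35), Pcolce (-3.39) and Lox (-5.14).

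Single transcripts were tested to see whether the transcripts of a collagen gene moved alike. Of all 44724 transcripts tested, 11.5% were called in F/R/C against MEF and 7.88% in F/R/C against MyoD. Of 106 tested transcripts of 41 collagen genes, 12 were higher and 14 lower in F/R/C than in MEF libraries, where 6.71% and 4.77% of all transcripts were, and 6 were higher and 10 lower than in MyoD libraries, where 4.09% and 3.79% were. These counts moved when single libraries were left out. Those higher against MEF numbered 4 without MEF replicate 1 or 2, 5 without F/R/C replicate 1 or 2 and 6 without F/R/C replicate 3, and those lower 9 without F/R/C replicate 2. Those higher against MyoD numbered 10 without MEF replicate 3, 2 without MyoD replicate 1, 3 without MyoD replicate 2 or 3 and 1 without any 1 of the F/R/C libraries. Those lower against MyoD numbered 2 without MyoD replicate 1 or F/R/C replicate 2, 3 without F/R/C replicate 3 and 5 without MyoD replicate 2 or F/R/C replicate 1. Between MyoD and MEF 0 were called, where 0.0112% of all were. All 3 called transcripts of Col16a1 fell against MEF, by 1.69 to 2.60 on the log2 scale. Both called transcripts of Col4a5 fell, Col4a5-202 averaging 1.68 ± 0.831 TPM in F/R/C and 23.2 ± 12.01 TPM in MEF libraries and Col4a5-201 averaging 1.91 ± 0.956 TPM in F/R/C and 27.6 ± 16.5 TPM in MEF libraries. The transcripts of Col25a1 called higher were Col25a1-202, at 26.7 ± 5.75 TPM in F/R/C and 1.03 ± 0.3197 TPM in MEF libraries, and Col25a1-201. Col25a1-204 was also higher, at 4.40 ± 3.53 TPM in F/R/C and 0.636 ± 0.159 TPM in MEF libraries. It missed the threshold (3.12 ± 1.05, adjusted p = 0.0962). The only called transcript of Col7a1 was Col7a1-208, annotated as a retained intron, at 13.0 ± 4.73 TPM in F/R/C and 2.45 ± 1.401 TPM in MEF libraries. Not all called transcripts moved with their gene. Col4a1-208, annotated for nonsense-mediated decay, was called higher against MEF (adjusted p = 0.0419), while Col4a1 as a gene was not called. That transcript was very low, at 2.38, 0.0720 and 0.859 TPM in F/R/C and at most 0.0287 TPM in MEF libraries, so no fold is given.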

How the data were processed

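Polyadenylated RNA of 9 libraries was sequenced with a stranded kit (TruSeq), per the labels' protocols, and the submitters' processing notes name bcl2fastq 2.19, Trimmomatic 0.36, kallisto 0.44, edgeR 3.28 and GRCm38.p6. The authors deposited estimated counts and TPM (abundance per transcript length) per Ensembl transcript. Of 121843 transcripts, 121104 were matched to GENCODE M21, and the 739 others (0.200% to 0.494% of counts) were left out. Estimated counts were summed per gene, rounded and tested with edgeR 4.0.16 in R 4.3.3 (quasi-likelihood F test, 1 fit of all 9 libraries, TMM scaling, filterByExpr with a minimum count of 10 and total of 15, two-sided, Benjamini-Hochberg over 15714 genes, called at an adjusted p under 0.05). TPM were summed per gene for shares and ratios. Errors of fold changes are the size of the log2 fold change over the square root of F, and errors of levels are SD over 3 libraries. Whether the authors' counting used strand is not given in the sources used here, so reads of overlapping genes on opposite strands cannot be told apart. Col21a1 was not analysed here.

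The members and gene lists were chosen with earlier results of these data known. The rule for values per library covered up to 8 called collagens a class, the 5 of highest mean TPM, all type IV chains and 6 collagens described in muscle. Such values are also given for further collagens, called or not, such as Col5a3 and Col12a1. From each other list, up to 4 genes are named, by adjusted p. Libraries of equal number deviated together in MyoD and MEF (correlations of deviations 0.655, 0.632 and 0.729) and weakly in F/R/C and MEF (0.142, 0.151 and 0.101), each over the limit of 0.1, so a replicate block was also fitted. Between F/R/C and MyoD 1 pair was below it (0.0837) and the others were above it (0.119 and 0.164). Alternatives were DESeq2 1.42.0, other scalings and filters, a fit of 2 groups alone, counts scaled from TPM, protein-coding transcripts alone, each library left out, and, chosen after seeing the data, MEF and MyoD replicates 3 left out together.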

Additional observations from a re-analysis of the deposited data

How the results depend on the processing

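Of the 23 collagens called in F/R/C against MEF libraries, 18 kept their call under all alternatives run, and Col1a1, Col4a6, Col10a1, Col11a2 and Col27a1 did not. Of the 19 called against MyoD, 12 did. With the replicate block, 27 collagens were called against MEF, 0 in MyoD against MEF libraries (with 13 genes of all higher), and 22 in F/R/C against MyoD, where Col2a1 was lost (adjusted p = 0.0802) and Col4a6 gained (0.00123). The block changed no other call of a collagen than these and those of Col3a1, Col5a1 and Col18a1 given above, beside Col9a1 (gained against MEF) and Col5a2, Col9a2 and Col27a1 (gained against MyoD). Block results for genes of the other lists are not given. Between F/R/C and MyoD, libraries of equal number deviated together only weakly (correlations 0.0837, 0.119 and 0.164). For MyoD against MEF, DESeq2 called 160 genes higher and 11 lower, a filter of 1 count 10 and 1, and the omission of MEF and MyoD replicates 3 together 198 and 1, with 1 collagen, Col19a1. Without them Col4a1 and Col4a2 turned to 0.58 and 0.21 against MEF, after 0.48 and 0.11 without MEF replicate 3 alone, and Col6a1 and Col6a2 turned to 0.0033 and 0.25 without MEF replicate 1. Over single omissions these 4 ranged from -0.62 to 0.48, -0.86 to 0.11, -0.93 to 0.0033 and -0.74 to 0.25. Col14a1 in F/R/C against MyoD changed sign often (0.05 as fitted over 9 libraries), at -0.27 with total counts, -0.0068 with a mean of 1 CPM, -0.038 in a fit of 2 groups, -0.49 without MEF and MyoD replicates 3, and -0.53 to 3.42 over single omissions. The cause was not tested. Scaling by total counts moved the median of all genes to -0.128 (F/R/C against MEF), -0.205 (F/R/C against MyoD) and 0.0908 (MyoD against MEF), and no called collagen changed direction under it.

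Leaving out 1 library at a time gave these ranges. Genes called in F/R/C against MEF were 2168 to 3260 higher and 2065 to 3102 lower, with 8 to 9 and 10 to 16 collagens. In MyoD against MEF they were 0 to 158 higher and 0 to 3 lower, with 0 to 1 and 0 to 0 collagens. In F/R/C against MyoD they were 1778 to 2756 higher and 1744 to 2819 lower, with 7 to 10 and 6 to 13 collagens. The fibrillar log2 ratio was -3.07 to -1.77 in F/R/C against MEF, -2.19 to -0.24 in MyoD against MEF and -1.81 to -0.48 in F/R/C against MyoD, the last without MyoD replicate 1. The basement membrane ratio was -0.17 to 0.41, -0.67 to -0.09 and 0.39 to 0.71 in these comparisons, and that of the other collagens -1.02 to -0.55, -1.02 to -0.25 and -0.46 to 0.21. Collagen transcripts called in F/R/C against MEF were 4 to 11 higher and 9 to 16 lower, and against MyoD 1 to 10 higher and 2 to 10 lower. Collagens near the floor of 3 counts, such as Col6a5 and Col13a1 outside F/R/C, are limited by depth.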
